A study of Mus musculus with 6 samples.

Results

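NRF2 target and ferritin genes were followed in aged WT and SELENOW KO mice, in a muscle of the lower leg, the tibialis anterior (TA). The 10 genes were chosen by symbol from the 55416 genes of the count table: Hmox1, Nqo1, Gclc, Gclm, Srxn1, Prdx1 and Txn1, which belong to the antioxidant programme, and Fth1, Ftl1 and Ftl1-ps1, which belong to the ferritin family. All 10 passed the filter on low counts and were among the 15623 genes tested. RNA sequencing covered 3 WT and 3 KO mice, 1 library each, all 24 months old by natural aging and, per the study's methods, from lines kept on a C57BL/6N background. The KO line carried a deletion of exon 4 of SELENOW, made with 2 sgRNAs, and the methods name no tissue-restricted driver. Aging is the treatment that the labels name for both groups. The authors deposited raw read counts per gene, and levels are given here as CPM, the share of a library's reads that fall on a gene, after TMM scaling, which corrects for library size and composition.

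NRF2 (encoded by Nfe2l2) is a transcription factor that KEAP1 holds in the cytoplasm and hands to a CUL3 ubiquitin ligase for degradation. Oxidants and electrophiles modify KEAP1, NRF2 then accumulates, pairs with a small MAF protein and binds antioxidant response elements in front of its target genes, while BACH1 occupies the same elements as a repressor. Its classical targets make glutathione (Gclc, Gclm), reduce quinones (Nqo1), run the thioredoxin and peroxiredoxin cycle (Txn1, Prdx1, Srxn1), break down heme (Hmox1) and store the iron set free by that step in ferritin, a shell of heavy (Fth1) and light (Ftl1) chains. Ferritin is also set after transcription by iron regulatory proteins, which bind a stem-loop at the start of the ferritin mRNAs when iron is scarce and block translation. SELENOW is a small selenoprotein abundant in skeletal muscle, and its active site resembles that of thioredoxins.

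The promoter sequences are shown because NRF2 acts through the antioxidant response element, whose core is written here as TGACNNNGC, with the related form TGANTCAGC in which the element overlaps an AP-1 site. RefSeq windows of GRCm38.p6, from 250 bases before to 50 bases after the annotated start, were found for 7 of the 10 genes in 8 windows, and both strands were searched. Promoter windows of Hmox1, Gclc and Ftl1-ps1 were not analysed here. Either form was in 13.0% of all 32851 mouse windows, the core alone in 12.4% and the AP-1 form in 1.19%. Matches lay in the windows of Srxn1, Gclm and Prdx1, with the motif in capitals below, and the windows of Nqo1, Txn1, Ftl1 and Fth1 held no match to these letters. The match in Srxn1 began 45 bases before the start (chr2:152105459-152105507, + strand), that in Gclm 134 bases before it (chr3:122245403-122245451, + strand) and that in Prdx1 133 bases before it (chr4:116685446-116685494, + strand). Srxn1 matched the AP-1 form as written, Gclm the core on the opposite strand and Prdx1 both forms on the opposite strand. A further match to the core began at base 29 of the Srxn1 transcript. A match is a description of letters and not of binding. Sequence outside these windows was not searched, so a window without a match does not show that the gene lacks the element.
Srxn1: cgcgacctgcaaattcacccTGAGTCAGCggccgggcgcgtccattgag
Gclm: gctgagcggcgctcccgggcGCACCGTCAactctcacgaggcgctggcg
Prdx1: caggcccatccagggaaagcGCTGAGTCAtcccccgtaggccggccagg

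The ferritin transcripts carry the iron-responsive element, shown because it is the part of the mRNA through which iron acts on both chains. The letters searched were a C, 5 further bases and CAGTG (capitals) in the first 250 bases of the GENCODE M21 transcripts, a pattern found in 10.1% of 58797 protein-coding transcripts and so not specific by itself. The searched letters began at base 93 of the Fth1 transcript of 929 bases, base 84 of the Ftl1 transcript of 968 bases and base 26 of the Ftl1-ps1 transcript of 938 bases. The stretches printed below begin at bases 88, 79 and 21. The stretch of 28 bases was identical in Ftl1 and Ftl1-ps1.
Fth1: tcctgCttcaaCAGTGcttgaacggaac
Ftl1: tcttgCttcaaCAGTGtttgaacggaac
Ftl1-ps1: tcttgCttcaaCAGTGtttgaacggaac

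Ftl1-ps1 is a near copy of the light chain gene, placed on chromosome 13 from 74399694 to 74407346 (+ strand, GRCm38), while Ftl1 lies on chromosome 7 from 45457944 to 45459884 (- strand). RefSeq annotates it as a pseudogene and GENCODE M21 as protein-coding. These transcripts of Ftl1 and Ftl1-ps1 aligned over 910 bases with 4 mismatches (99.6% identity), and of the windows of 150 bases in the Ftl1 transcript, the length of a read, 46.0% were found without any change in that of Ftl1-ps1. The open reading frame of Ftl1, 552 bases and 183 codons long, differed from the copy at 2 bases. Both lie in the stretch below, bases 415 to 504 of the frame, with the bases that differ in capitals, and reads that miss such bases cannot be assigned to one of the genes by sequence. The handling of reads with several matches is not given in the sources used here, so the counts of Ftl1 and Ftl1-ps1 are uncertain against each other.
Ftl1: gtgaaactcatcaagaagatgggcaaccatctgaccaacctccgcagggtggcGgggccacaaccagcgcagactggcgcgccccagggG
Ftl1-ps1: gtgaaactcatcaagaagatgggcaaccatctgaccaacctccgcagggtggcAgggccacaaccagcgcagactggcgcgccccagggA

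WT libraries held 25351976 to 29111213 counts and KO libraries 27345022 to 27815342, and a count of 3 in 1 library corresponds to 0.0934 to 0.122 CPM after TMM scaling. Mitochondrially encoded genes took 29.1% to 37.3% of the counts in WT and 35.4% to 40.3% in KO. The 12 skeletal muscle markers, fast fibre genes among them, summed to 97675 to 124996 CPM over the 6 libraries, none passed the thresholds below, and all had counts in every library. Selenow was at 268, 245 and 219 CPM in WT and 193, 212 and 210 CPM in KO. All KO values were below all WT values, but the log2 fold change was -0.25 (SE 0.14) and did not pass the test (edgeR, adjusted p = 0.604). The count covers the whole gene, so exons that were not deleted can contribute, and it checks the labels only in part. Exons were not counted separately, so their part was not tested. The study reports loss of the SELENOW protein in KO muscle by Western blot. Genes were called by the study's DEG thresholds, an unadjusted p under 0.05 with a fold change over 1.5 or under 0.7, in edgeR's quasi-likelihood test.

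As compared with WT, 4 of the 10 genes were lower in KO and none was higher: Ftl1-ps1, Hmox1, Ftl1 and Txn1, which hold the light chain of ferritin with its copy, the heme-degrading enzyme and thioredoxin. Gclc, Gclm, Nqo1, Prdx1, Srxn1 and the ferritin heavy chain gene Fth1 did not pass. The background over all 15623 genes was 3.14% called lower, 2.21% called higher and 5.35% called in either direction. The log2 fold change was below 0 for 7 genes and above 0 for 3, with a median of -0.38 against -0.0042 for all genes tested. The libraries of the same 4 genes did not overlap, every KO value lying below every WT value, which was so for 7.87% of all genes (and the opposite for 7.53%). No gene of the 10 had an adjusted p under 0.05 in edgeR (0% of all genes, the smallest adjusted p being 0.0588). An unadjusted edgeR p under 0.05 was found for 4 of the 10, against 1545 of all 15623 genes tested. DESeq2 gave 1 of the 10 with an adjusted p under 0.05, Ftl1-ps1, against 45 of all genes tested. The genes were chosen with earlier results of these data known, so the count is a description of these genes. Ftl1 and Ftl1-ps1 are counted as separate genes here. Some of their reads cannot be told apart by sequence, so their calls may not be independent.

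**Figure D1:**
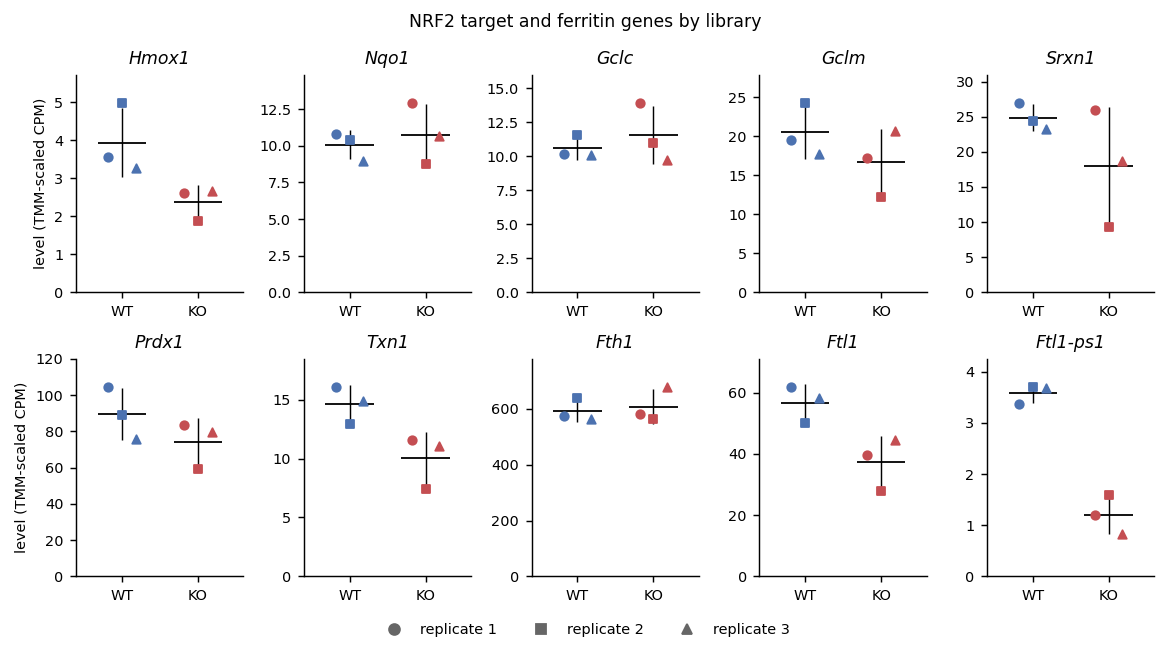
Level of each gene in TMM-scaled CPM (y axis, from 0) in the 3 WT (blue) and 3 KO (red) libraries. Symbols mark the replicate number, bars the mean and vertical lines ± 1 SD; the groups do not overlap for Hmox1, Txn1, Ftl1 and Ftl1-ps1, and KO replicate 2 is the lowest of 6 libraries for 7 of the 10 genes.

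KO replicate 2 stood apart in these genes. It was the lowest of the 6 libraries for 7 of the 10 genes, whereas it was the lowest for 19.7% of all genes tested. WT replicate 1 was the highest for 4 genes, WT replicate 2 for 3, KO replicate 1 for 2 and KO replicate 3 for 1. Without KO replicate 2 the count of genes called lower fell from 4 to 2, Hmox1 and Ftl1-ps1. Over all genes it went from 491 of 15623 tested to 671 of 16103. In bulk muscle, fewer cells of a type and less RNA per cell cannot be told apart, and this holds for each level given here.

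Per length, the order of the levels in WT was led by Fth1 at 171 ± 11.7 CPM per kb of counted gene (SD, n = 3), followed by Ftl1 at 42.4 ± 4.49, Prdx1 at 29.5 ± 4.76, Txn1 at 13.9 ± 1.53, Srxn1 at 8.82 ± 0.677 and Nqo1 at 6.49 ± 0.622. The lower part of the order held Gclm at 3.26 ± 0.536, Ftl1-ps1 at 2.93 ± 0.156, Gclc at 2.82 ± 0.223 and Hmox1 at 2.25 ± 0.524 CPM per kb. Over all 6 libraries, Fth1 stood clear of Ftl1, Prdx1 of Txn1 and Nqo1 of Gclm, while the other neighbours in the order overlapped in range. Fth1 was at percentile 98.9 of all tested genes per length, Ftl1 at 95.7 and Prdx1 at 94.6, whereas Hmox1 was at 54.3. The counted lengths are unions of all annotated exons, which lowers the values per kb of genes with long alternative exons.

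Ferritin light chain, which helps the shell take up and mineralize iron, was lower in KO muscle. Ftl1 was at 61.9, 50.2 and 58.3 CPM in WT and at 39.6, 27.8 and 44.5 CPM in KO. The 3 KO libraries were all below the lowest WT library, and KO replicate 2 was the lowest. Its level fell by 34.3% (log2 -0.61, SE 0.17), which passed the DEG thresholds but not the adjustment over all genes (edgeR, adjusted p = 0.301). It was called in 16 of 17 alternatives, and without KO replicate 2 it was at -0.43 and no longer past the fold threshold.

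Ftl1-ps1 fell furthest of the 10 genes. Its counts were 83, 119 and 112 in WT and 30, 39 and 22 in KO, which were 3.37, 3.70 and 3.69 CPM against 1.21, 1.59 and 0.823 CPM. The WT libraries lay close together, the KO libraries were spread wider, and the highest KO value was well below the lowest WT value. Its level fell by 66.4% (log2 -1.57, SE 0.26), with an unadjusted p of 5.67e-05 that ranked 6 among all genes and an adjusted p of 0.148 in edgeR. DESeq2 gave a log2 fold change of -1.58 with an adjusted p of 0.00129. The call held in all 15 alternatives, with log2 fold changes from -1.82 to -1.35 and edgeR or DESeq2 adjusted p-values from 1.95e-05 to 0.294.

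The values of annotated pseudogenes are given beside those of Ftl1-ps1. Among the 1195 tested genes that GENCODE M21 types as pseudogenes, 19.3% were called lower and the median log2 fold change was -0.33, whereas among 12347 protein-coding genes 1.76% were called lower and the median was -0.0030. Ftl1-ps1, typed there as protein-coding, is not among the 1195. The other tested light chain copy, Ftl2-ps, was at 0.973, 1.31 and 0.955 CPM in WT and 0.564, 0.612 and 0.337 CPM in KO, also without overlap, with a log2 fold change of -1.10 (SE 0.38, edgeR adjusted p = 0.387). Ftl2-ps was singled out after its values were seen, as a gene of 98.7% identity to Ftl1 over 552 bases. Whether shared reads had a part in the values of these copies was not tested. With the counts of Ftl1-ps1, Ftl1-ps2 and Ftl2-ps added to Ftl1, a step chosen after seeing the data, the log2 fold change of the light chain family was -0.66 (SE 0.16) and stayed past the DEG thresholds.

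Ferritin heavy chain, which carries the ferroxidase centre, showed no such difference. Fth1 (chromosome 19 from 9980598 to 9985098, + strand) was at 574, 639 and 564 CPM in WT and at 581, 565 and 679 CPM in KO. The groups overlapped throughout, and the highest library was a KO one. The log2 fold change was 0.038 (SE 0.15, edgeR adjusted p = 0.954), and it ranged from -0.046 to 0.10 when 1 library was left out, turning below 0 without KO replicate 3. Adding the copies Fth-ps2 and Fth-ps3, which were close to 0 counts, left it at 0.038.

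The ratio of Fth1 to Ftl1 counts within a library does not depend on depth or scaling. It was 9.28, 12.7 and 9.68 in WT and 14.7, 20.4 and 15.3 in KO. All KO ratios were above all WT ratios, with WT replicate 2 the highest of its group and KO replicate 2 of its own. The KO ratio was 1.59-fold the WT ratio (log2 difference 0.67), and the exact permutation test, two-sided, gave p = 0.1, the smallest that 3 against 3 libraries allow. The log2 difference ranged from 0.52 to 0.81 when 1 library was left out, the 0.52 being without KO replicate 2 (exact permutation test, p = 0.2). The ratio uses the same counts as the log2 fold changes of Ftl1 (-0.61) and Fth1 (0.038), so it is not a separate result. With all light and heavy chain copies added, as chosen after seeing the data, it was 0.71. The ratio compares mRNA counts of genes of unlike length, not subunits of the shell.

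**Figure D2:**
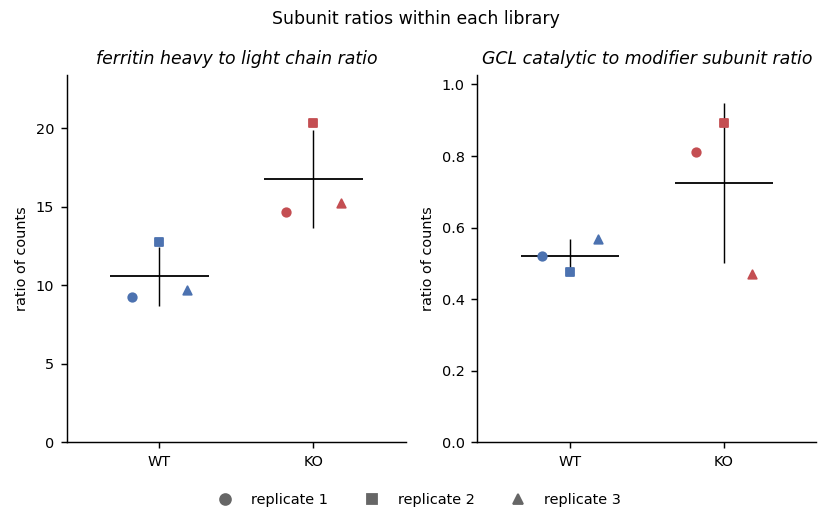
Ratio of Fth1 to Ftl1 counts (left) and of Gclc to Gclm counts (right) in each library (y axes, ratio of counts, from 0), WT in blue and KO in red, with the mean and ± 1 SD of each group. The ferritin ratio is 9.28 to 12.7 in WT and 14.7 to 20.4 in KO without overlap, while the Gclc to Gclm ratio of KO replicate 3 lies below all WT libraries.

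Heme oxygenase, which opens the heme ring and releases its iron, was the least abundant of the 10 genes per length in WT and lower in KO. Hmox1 (chromosome 8 from 75093621 to 75100589, + strand) was at 3.57, 4.98 and 3.26 CPM in WT and at 2.62, 1.88 and 2.66 CPM in KO, from 46 to 160 counts. The groups did not overlap, and WT replicate 2 was well above the other WT libraries. Its level fell by 39.5% (log2 -0.72, SE 0.24), which passed the DEG thresholds, with an adjusted p of 0.354 in edgeR. Without WT replicate 2 the log2 fold change was -0.51 and the gene was no longer called (edgeR, adjusted p = 0.559).

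Hmox1 is known for high expression in macrophages that clear red cells, so the markers of both cell types were summed beside it. Erythroid markers, 9 of 10 found in the table, summed to 213 to 337 CPM in WT and 189 to 208 CPM in KO, with WT replicate 2 highest as for Hmox1. Of 6 tested, 5 had a log2 fold change below 0 and 2 were called lower, against 3.14% of all genes tested. These were Hbb-bs at -0.68 (SE 0.18) and Hbb-bt at -0.69 (SE 0.20), the adult beta globins (edgeR, adjusted p = 0.299 and 0.324). No erythroid marker was at 0 in all libraries, and Slc4a1, the anion exchanger of red cells, was at 0 in some of them.

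Macrophage markers, 17 of 20 tested, summed to 54.5, 36.5 and 124 CPM in WT and 50.7, 37.8 and 30.7 CPM in KO. The high sum belonged to WT replicate 3, and the groups overlapped. 15 of the 17 were below 0 in log2 fold change, with a median of -0.95. 1 was called lower, against 3.14% of all genes tested: Csf1r, the receptor that sustains macrophages, at -0.69 (SE 0.28, edgeR adjusted p = 0.470). Fcgr1, Vsig4 and Timd4 were at 0 in some libraries, and none of the list was at 0 in all. Hmox1 in WT replicate 3, at 3.26 CPM, was the lowest of the WT values. The part of blood or macrophage RNA in the Hmox1 difference was not tested.

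**Figure D3:**
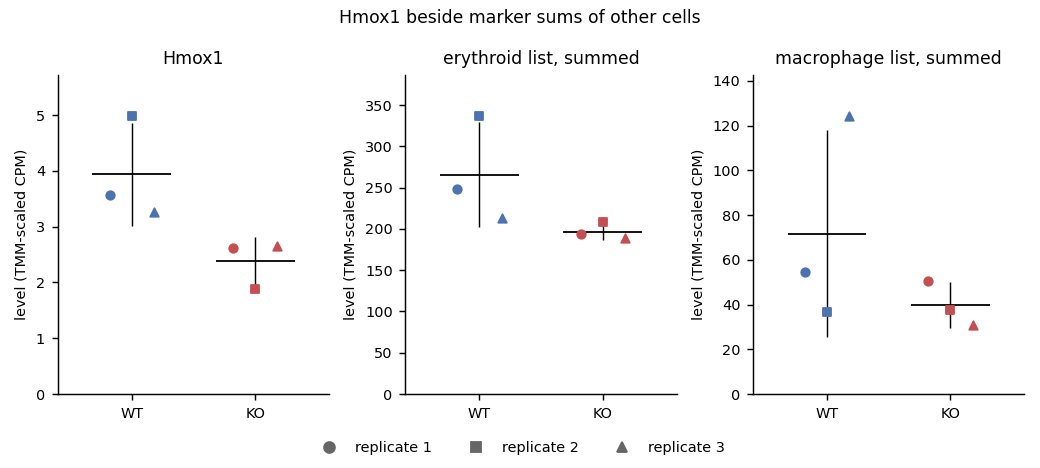
Level of Hmox1, summed level of the erythroid markers and summed level of the macrophage markers (y axes, TMM-scaled CPM, from 0) in each library, WT in blue and KO in red, with the mean and ± 1 SD. WT replicate 2 is the highest library for Hmox1 (4.98) and for the erythroid sum (337), and WT replicate 3 for the macrophage sum (124).

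Thioredoxin, the small protein that passes electrons to peroxiredoxins and other disulfides, was lower in KO. Txn1 (chromosome 4 from 57943373 to 57956411, - strand) was at 16.1, 12.9 and 14.9 CPM in WT and at 11.6, 7.46 and 11.1 CPM in KO. No KO library reached the lowest WT library, and KO replicate 2 was again the lowest. Its level fell by 31.3% (log2 -0.54, SE 0.17), which passed the DEG thresholds with an adjusted p of 0.340 in edgeR. The log2 fold change lies near the fold threshold: it was -0.47 without WT replicate 1, -0.36 without KO replicate 2 and -0.44 with an offset for gene length, and in these 3 of 16 alternatives the gene was not called.

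Prdx1, the peroxiredoxin that thioredoxin keeps reduced, was at 104, 88.9 and 75.5 CPM in WT and at 83.5, 59.1 and 79.6 CPM in KO. Both groups spanned a wide range and overlapped, and the log2 fold change of -0.27 (SE 0.17) did not pass (edgeR, adjusted p = 0.635). Srxn1, which returns overoxidized peroxiredoxin to use, was at 27.0, 24.4 and 23.3 CPM in WT and at 26.0, 9.25 and 18.7 CPM in KO. WT libraries lay within a few CPM of each other, whereas the KO libraries ran from the level of WT to less than the rest by far in KO replicate 2. The log2 fold change was -0.47 (SE 0.35, edgeR adjusted p = 0.709), and without KO replicate 1 it was -0.82 and past the DEG thresholds, whereas without KO replicate 2 it was -0.15.

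The other 20 genes of the thioredoxin and peroxiredoxin system, among them the mitochondrial and reticular forms, were all tested. None was called, against 5.35% of all genes tested. 14 had a log2 fold change below 0 and 6 above, from -0.32 to 0.33 with a median of -0.083.

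Gclc and Gclm, the genes of glutathione synthesis among the 10, did not pass the test. Gclc, the catalytic subunit of glutamate-cysteine ligase, was at 10.1, 11.6 and 10.1 CPM in WT and at 13.9, 11.0 and 9.76 CPM in KO. The KO libraries spread around the WT libraries, and the log2 fold change of 0.12 (SE 0.16, edgeR adjusted p = 0.825) fell to -0.030 without KO replicate 1. Gclm, the modifier subunit that raises the affinity of the enzyme for its substrate, was at 19.5, 24.3 and 17.8 CPM in WT and at 17.2, 12.3 and 20.7 CPM in KO. KO replicate 3 was above 2 of the WT libraries, and the log2 fold change was -0.29 (SE 0.19, edgeR adjusted p = 0.647).

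The ratio of Gclc to Gclm counts was 0.521, 0.477 and 0.569 in WT and 0.810, 0.894 and 0.471 in KO. KO replicates 1 and 2 were above all WT libraries and KO replicate 3 was below them. The log2 difference was 0.42 (exact permutation test, two-sided, p = 0.4). It was 0.25 without KO replicate 2 (exact p = 0.7) and 0.71 without KO replicate 3 (exact p = 0.1).

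Nqo1, a quinone reductase and the textbook readout of NRF2, was at 10.8, 10.4 and 8.99 CPM in WT and at 12.9, 8.72 and 10.7 CPM in KO. Both the highest and the lowest library were KO ones. The log2 fold change was 0.096 (SE 0.16, edgeR adjusted p = 0.877), and leaving out KO replicate 1 turned it to -0.050.

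**Figure D4:**
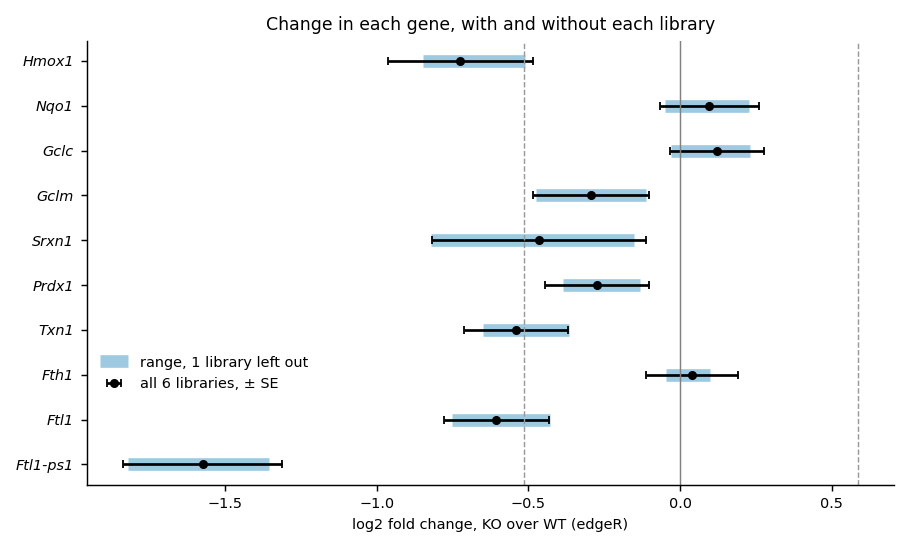
Log2 fold change of KO over WT for each gene (x axis, edgeR), with points and bars for all 6 libraries ± SE and the pale band for the range when 1 library was left out. Dashed lines mark folds of 0.7 and 1.5; the Ftl1-ps1 band lies wholly below the lower line, and the bands of Nqo1, Gclc and Fth1 cross 0.

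None of the 9 regulators of the pathway was called, against 5.35% of all genes tested, and 8 of them had a log2 fold change below 0. Nfe2l2 was at 21.1, 33.1 and 21.3 CPM in WT and at 23.2, 19.0 and 22.3 CPM in KO, with WT replicate 2 far above the others and a log2 fold change of -0.23 (SE 0.18, edgeR adjusted p = 0.705). The NRF2 adaptor Keap1 was at -0.11 (SE 0.13), its ligase partners Cul3 at 0.18 (SE 0.15) and Rbx1 at -0.093 (SE 0.13), and the repressor Bach1 at -0.17 (SE 0.18). Of the small MAF partners, Mafg was at -0.23 (SE 0.16), Mafk at -0.17 (SE 0.13) and Maff at -0.39 (SE 0.29), and Sqstm1, the autophagy receptor that binds KEAP1, was at -0.33 (SE 0.20). The edgeR adjusted p-values of these 8 ran up to 0.844, Sqstm1 having the lowest at 0.627, and the median over the 9 was -0.17. KO replicate 2 had the lowest Sqstm1 level of the 6 libraries, 218 CPM against 327 to 451 in the others.

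Beyond the 10 genes, 34 of 46 further NRF2 targets were tested, among them enzymes of NADPH supply, conjugation and export. None was called, against 5.35% of all genes tested. The log2 fold change was below 0 for 23 and above for 11, and the median was -0.073. An unadjusted edgeR p under 0.05 was found for 1545 of all 15623 genes tested and for 2 of these 34, both higher in KO. They were Gss, glutathione synthetase, at 0.56 (SE 0.18, edgeR adjusted p = 0.340) and Abcc1, a glutathione conjugate exporter, at 0.32 (SE 0.14, edgeR adjusted p = 0.491). Their KO libraries were all above their WT libraries, but the fold stayed under 1.5. In 3 others all KO values were below all WT values, with an unadjusted p over 0.05: Pgd, an enzyme of NADPH supply, at -0.25 (SE 0.15), Pir at -0.35 (SE 0.22) and Ptgr1 at -0.93 (SE 0.47), with edgeR adjusted p-values of 0.627, 0.641 and 0.552. Among all genes tested, every KO value was below every WT value for 7.87% and above for 7.53%. Gss, Abcc1, Pgd, Pir and Ptgr1 are named after their values were seen.

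Of 34 genes of iron and heme handling, 29 were tested and 1 was called, against 5.35% of all genes tested. Trf, transferrin, the iron carrier of plasma, was at 2.47, 1.31 and 3.52 CPM in WT and at 1.57, 1.30 and 1.31 CPM in KO. WT replicate 2 was at the level of KO, so the groups overlapped, and the log2 fold change was -0.80 (SE 0.34, edgeR adjusted p = 0.476). Cp, ceruloplasmin, the plasma ferroxidase, also had an unadjusted p under 0.05 and went the other way, at 3.16, 3.27 and 3.49 CPM in WT and 4.83, 4.40 and 4.11 CPM in KO. Its KO libraries were all above its WT libraries, but the log2 fold change of 0.43 (SE 0.18, edgeR adjusted p = 0.476) was under the fold threshold, and the gene is named after its values were seen. In this list 16 genes were below 0 and 13 above, with a median of -0.063, and the gene called depended on the libraries kept, from 0 to 3 genes when 1 was left out.

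The 4 genes called lower have counted lengths between 1 and 2 kb, as has Nqo1, which was not lower. Over all tested genes of that length the median log2 fold change was -0.090, against 0.048 for genes over 4 kb. With an offset for gene length in edgeR, the log2 fold changes were -1.49 for Ftl1-ps1, -0.67 for Hmox1 and -0.53 for Ftl1, all still past the DEG thresholds, and -0.44 for Txn1, which was not.

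Across the 6 libraries, the genes varied together in part. This is given as a description, since the libraries include WT and KO and a difference between the groups enters each r. The log2 CPM of Ftl1 and Txn1 had a Pearson r of 0.98, Srxn1 and Txn1 of 0.90, Srxn1 and Prdx1 of 0.88 and Hmox1 and Gclm of 0.88, whereas Ftl1 and Fth1 had an r of 0.073 and Ftl1 and Gclc of -0.36. Among 8970 tested genes with a mean of at least 100 counts, those most like Ftl1 were Zfp703 (r 0.99), Gm10252 (0.99) and Ostc (0.98), and those most like Txn1 were Nop16 (0.99), Pomp (0.99) and Golph3 (0.99). The 3 most like Ftl1-ps1 were Gm3362, Gm5537 and Pgk1-rs7 (all 0.97), each typed as a processed pseudogene.

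For Hmox1 they were Nifk, 2610020C07Rik and Gm49322 (all 0.99), for Nqo1 Vps25, Irf3 and Tigar (0.96), and for Gclc Cited2, Malat1 and Ewsr1 (0.97 to 0.997). Gclm was closest to Chmp7, Fam57b and Gm9828 (all 0.99), Srxn1 to Snx17, E130218I03Rik and Zfp593 (0.986 to 0.996), Prdx1 to Fitm1, Banf1 and Magoh (0.99), and Fth1 to Pigg, 2310001H17Rik and Fbxw4 (0.97 to 0.99). With 6 libraries and this many genes compared, an r near 1 was found for each of the 10 genes.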

How the data were processed

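The authors aligned paired-end reads of 150 bases with HISAT2 (per the labels and the study's methods), counted them per gene with featureCounts and deposited raw counts of 55416 genes, not normalized. The methods name GRCm38 and the submitters' processing notes GRCm39. Positions in the deposited table matched GENCODE M21 for 1494 of 52083 placed genes, so positions here come from M21 (GRCm38). The first WT column has no number and was taken as replicate 1, since replicates 2 and 3 are named.

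From the counts, genes were kept by filterByExpr, scaled by TMM (factors 0.893 to 1.20) and compared with edgeR's quasi-likelihood test (version 4.0.16, R 4.3.3, robust), with Benjamini-Hochberg adjustment over 15623 genes. Log2 CPM used a prior count of 1. Exact permutation tests, two-sided, compared ratios, and 3 against 3 libraries cannot give a p under 0.1. DESeq2 (version 1.42.0), its size factors, other filters, a gene length offset, no mitochondrial genes, robust estimation off, a replicate block, copies added and each library left out were alternatives. The steps were tested on simulated data.

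The genes and lists were chosen with earlier results of these data known. The text names the 10 genes, Selenow, the regulators, called genes of the other lists and, for each of the 10, the 3 genes with the highest correlation. Named outside this rule, after their values were seen, are Ftl2-ps, Gss, Abcc1, Pgd, Pir, Ptgr1, Cp and the markers given as 0 in some libraries. The labels do not say that same-numbered mice were paired, and p-values measure the spread between these libraries. Limits from counts cover counting error only.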

Additional observations from a re-analysis of the deposited data

How the results depend on the processing

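The counts of 4 genes lower and 0 higher were the same in DESeq2, with its size factors, with the other filters, with robust estimation off and without mitochondrial genes, and 3 genes were lower with the length offset. When 1 library was left out, from 2 to 5 genes were lower, the 2 being without KO replicate 2. The number with an adjusted p under 0.05 was 0 in edgeR, 1 in DESeq2 and 3 with no filter, where 31780 genes were tested, and ranged from 0 to 1 when 1 library was left out, the 1 being Ftl1-ps1 without KO replicate 2.

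Same-numbered libraries did not deviate together, with correlations of 0.060, 0.044 and -0.074 for replicates 1, 2 and 3. Such values cannot tell whether the mice were paired. With the replicate number as a block, 4 of the 10 genes were called lower, 2 further NRF2 targets against 0 without it and 2 genes of iron and heme handling against 1. DESeq2 gave 2 for iron and heme handling. Of all 15623 genes tested, 836 were called in either direction in the main fit, 890 with the block and 771 in DESeq2.

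When 1 library was left out, called genes ranged from 0 to 1 of the regulators, 0 to 1 of the thioredoxin and peroxiredoxin system, 0 to 2 of the further NRF2 targets and 0 to 3 of iron and heme handling. Over all genes, 814 to 1072 were called in either direction in those fits, of 15964 to 16105 tested. The log2 fold change reversed to -0.050 for Nqo1 and -0.030 for Gclc without KO replicate 1 (ranges -0.050 to 0.23 and -0.030 to 0.23) and to -0.046 for Fth1 without KO replicate 3 (range -0.046 to 0.10), in each case under its SE. The cause was not tested. At 22 to 160 counts, Hmox1 and Ftl1-ps1 are the genes where depth limits the precision most. Over all genes tested, those with an adjusted p under 0.05 numbered 0 in edgeR, 45 in DESeq2 and 363 with no filter, and 0 to 242 when 1 library was left out, the 242 being without KO replicate 2.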
